A study of Mus musculus with 4 samples.

Results

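The genes described here encode the subunits of oxidative phosphorylation, the 5 protein complexes of the inner mitochondrial membrane that pass electrons from nutrients to oxygen and make ATP. They were chosen by symbol, from the Nduf, Sdh, Uqcr, Cox5 to Cox8 and Atp5 families. The symbol rule itself used no measured value, but it was set with earlier results of these data known. Of 82 matching symbols, 77 had a mean of at least 1 FPKM (sequenced fragments per length of transcript and size of library) over the 4 libraries, among 10886 genes that passed this filter and were tested. Complex I was represented by 36 genes, complex II by 4, complex III by 8, complex IV by 12 and complex V by 17. All 77 also had a mean of at least 1 FPKM within each genotype group, so none passed through 1 group alone.

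RNA-seq was performed on jejunal epithelium of adult mice on a mixed 129xC57/Bl6xSvJ background, detached with EDTA. There were 2 libraries from mice labelled as double knockouts for Hnf4a and Cdx2, genes of intestinal transcription factors, and 2 from Cre-negative controls. All mice, controls included, were given tamoxifen (1 mg, 5 days), which activates Cre and deletes the conditional alleles where Cre is present. The labels call the replicates independent and biological, and the sources used here give neither the Cre driver nor the interval between tamoxifen and tissue collection. The comparison asks how expression differs in jejunal epithelium when both factors are targeted.

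In background terms, complex I (NADH dehydrogenase) and complex II (succinate dehydrogenase, which is also an enzyme of the citric acid cycle) feed electrons to coenzyme Q. Complex III passes them to cytochrome c, complex IV (cytochrome c oxidase) passes them to oxygen, and complex V (ATP synthase) uses the resulting proton gradient to make ATP. Most subunits are encoded in the nucleus and made in rather constant proportion to one another, and a few complex IV subunits exist as a ubiquitous isoform and a tissue-restricted one. Absorptive enterocytes of the small intestine depend on this pathway for nutrient transport. Mitochondrially encoded subunits were not analysed here.

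The targeted genes were read before the subunits. Hnf4a (mm9, chromosome 2, 163372924 to 163398643) had 31.6 and 48.2 FPKM in the libraries labelled double knockout, against 156 and 202 FPKM in controls. Its log2 fold change was -2.16 ± 0.27 (SE), with a limma adjusted p of 0.0147. Cdx2 (mm9, chromosome 5, 148112476 to 148118825) had 160 and 161 FPKM in the libraries labelled double knockout, against 70.9 and 65.2 FPKM in controls (log2 fold change 1.23 ± 0.15 SE, limma adjusted p = 0.0150). Cdx2 therefore goes against its label at the level of whole-gene FPKM, which includes reads from exons outside a deletion. Each direction given is that of the libraries labelled double knockout relative to controls. Both calls were lost when either control was left out, which leaves 1 control and under which most calls over all genes were lost. The Cdx2 call was lost without double knockout replicate 2 as well. Over all alternatives tried, the log2 fold change was -2.46 to -1.86 for Hnf4a and 1.17 to 1.34 for Cdx2.

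Most of the 77 subunit genes were measured within a narrow range of the control level, and 1 stood apart. Cox7a1, a complex IV subunit known as the heart and skeletal muscle isoform, was 6.32-fold lower in the libraries labelled double knockout. It was the sole subunit called at a limma adjusted p under 0.05, and none was called higher by limma or in the authors' deposited table. That is 1.30% of the 77 subunits, beside 9.65% of all genes tested. Over all genes 3.79% were called higher and 5.85% lower. At an unadjusted p under 0.05 there were 2 subunits, Cox7a1 and Ndufa1, both lower, while 28.3% of all genes were under that level.

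The log2 fold changes of the subunits were small beside those of other genes. Their median size was 0.14, beside 0.32 over all genes tested. They lay within 0.5 of zero for 75 of 77 subunits (97.4%), beside 67.4% of all genes. Of lists described below, this share was 89.7% for assembly factors and 83.3% for the citric acid cycle. It was 52.6% for regulators of mitochondrial genes and 61.1% for glycolysis. The subunits were also more abundant, with a median mean level of 315 FPKM, beside 11.5 FPKM over all genes. A log2 fold change of at least 1 in size was reached by 1 subunit (1.30%), beside 12.6% of all genes. The 95% interval lay wholly between -1 and 1 for 74 of 77 subunits (96.1%), beside 61.1% of all genes. The median standard error was 0.20 for both the subunits and all genes. A subunit that was not called is not thereby shown to be equal between groups.

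The median log2 fold change was -0.07 over the subunits and 0.02 over all genes, with 31 subunits above zero and 46 below. With the FPKM that the authors estimated for each library alone these medians were 0.08 and 0.17, and those of complexes II, III and V were above zero too. Under quantile normalization the median over the subunits was 0.00. The median of complex IV was below zero on every scale tried. Both libraries labelled double knockout lay above both controls for 9 subunits and below both for 17. This makes 33.8% of subunits whose groups did not overlap, beside 60.7% of all genes (31.2% above and 29.5% below).

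**Figure D1:**
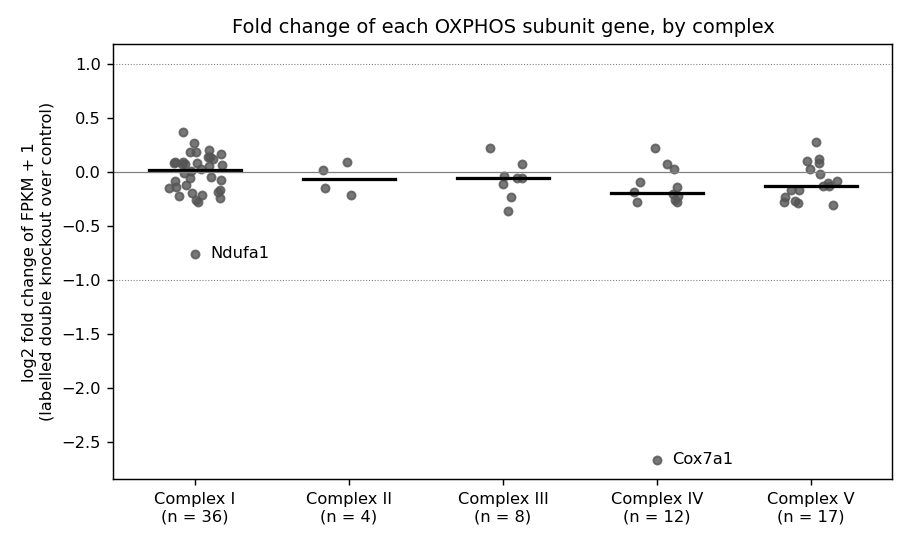
Log2 fold change of FPKM + 1 (libraries labelled double knockout over control, y axis) for each of the 77 subunit genes, grouped by complex (x axis); each point is a gene, bars are medians and dotted lines mark -1 and 1. Cox7a1 at -2.66 and Ndufa1 at -0.76 lie apart from the other 75 subunits.

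Cox7a1 lies on mm9 chromosome 7, 30969190 to 30971049. It had 93.2 and 142 FPKM in the libraries labelled double knockout, against 555 and 970 FPKM in controls. The 2 groups did not overlap, and both controls lay far above both libraries labelled double knockout. The means were 118 ± 34.8 FPKM in the libraries labelled double knockout and 763 ± 294 FPKM in controls (SD, n = 2 each). The log2 fold change was -2.66 ± 0.36 (SE), with a 95% interval of -3.59 to -1.73 and a limma adjusted p of 0.0176. By FPKM it ranked 70th and 65th of the 77 subunits in the libraries labelled double knockout, against 20th and 10th in controls. Among all genes tested, 103 had a lower log2 fold change.

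The call for Cox7a1 held when double knockout replicate 2 was left out. It was lost when control replicate 1, control replicate 2 or double knockout replicate 1 was left out. Each such fit has 1 library in a group, and without either control most calls over all genes were lost. The log2 fold change of Cox7a1 stayed between -3.06 and -2.26 when libraries were left out. In the authors' deposited table the group values of Cox7a1 were 114 FPKM for double knockout and 752 FPKM for control, with a q-value of 0.000868. The authors' deposited table called 1 of the 77 subunits, Cox7a1, beside 13.2% of all genes tested there. The lowest q-value of any other subunit in the authors' deposited table was 0.0888, for Ndufa1.

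Mammals carry a pair of main genes for subunit 7a of complex IV, with Cox7a2 as the ubiquitous form. Cox7a2 had 334 and 339 FPKM in the libraries labelled double knockout, against 366 and 400 FPKM in controls. Its groups did not overlap, but the log2 fold change was -0.18 with a 95% interval of -0.64 to 0.27 (limma adjusted p = 0.540). Of the FPKM of both genes together, Cox7a1 made up 21.8% and 29.6% in the libraries labelled double knockout, against 60.2% and 70.8% in controls. Cox7a1 was thus the more abundant of the pair in both controls, and Cox7a2 in both libraries labelled double knockout. Their summed level was 428 and 481 FPKM in the libraries labelled double knockout, against 921 and 1371 FPKM in controls.

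The other restricted isoforms of complex IV were low or listed at 0. Cox6a2, the muscle partner of Cox6a1, was listed at 0 in both libraries labelled double knockout and at 0.109 and 0 FPKM in controls. Cox8b, the muscle partner of Cox8a, was listed at 0 in all 4 libraries, as were Cox7b2 and Cox8c. Cox6b2, the testis partner of Cox6b1, had 5.30 and 3.32 FPKM in the libraries labelled double knockout, against 4.89 and 2.41 FPKM in controls. It held at most 0.621% of the FPKM of that pair in any library. At 3.98 FPKM on average it was also the subunit nearest to the filter from above, followed by Atp5s at 4.96 FPKM. Below the filter lay Cox6a2, Cox7b2, Cox8b, Cox8c and Ndufa4l2, an isoform of Ndufa4 listed at 0 and 0.130 FPKM in the libraries labelled double knockout and at 0 and 0.285 FPKM in controls.

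Markers of tissues known for high Cox7a1 were near 0 or low in every library. The 4 markers of skeletal and cardiac muscle (Acta1, Ckm, Myh7 and Tnnt2) summed to 3.85 and 2.62 FPKM in the libraries labelled double knockout, against 8.68 and 2.60 FPKM in controls. Of these, Ckm, the muscle creatine kinase, was listed at 0 in both libraries labelled double knockout and at 0.0406 and 0 FPKM in controls. Myh7, a myosin heavy chain, had 3.29 and 1.58 FPKM in the libraries labelled double knockout and 0 and 0.0122 FPKM in controls. It passed the filter only through the libraries labelled double knockout (mean 2.44 FPKM there, 0.00611 FPKM in controls). Its call as higher (limma adjusted p = 0.0359) was thus favoured by the filter and is not support for a difference. Acta1, skeletal actin, had 0.472 and 0.927 FPKM in the libraries labelled double knockout, against 8.09 and 2.43 FPKM in controls (limma adjusted p = 0.0979). It passed the filter only through the controls (mean 5.26 FPKM there, 0.700 FPKM in the libraries labelled double knockout). Of the brown fat markers, Ucp1 was listed at 0 in all 4 libraries, and Cidea had 0.315 and 0.411 FPKM in the libraries labelled double knockout and 0 in controls. The part of these cells in the Cox7a1 result was not tested. In bulk epithelium, fewer cells of a type and less RNA per cell cannot be told apart.

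**Figure D2:**
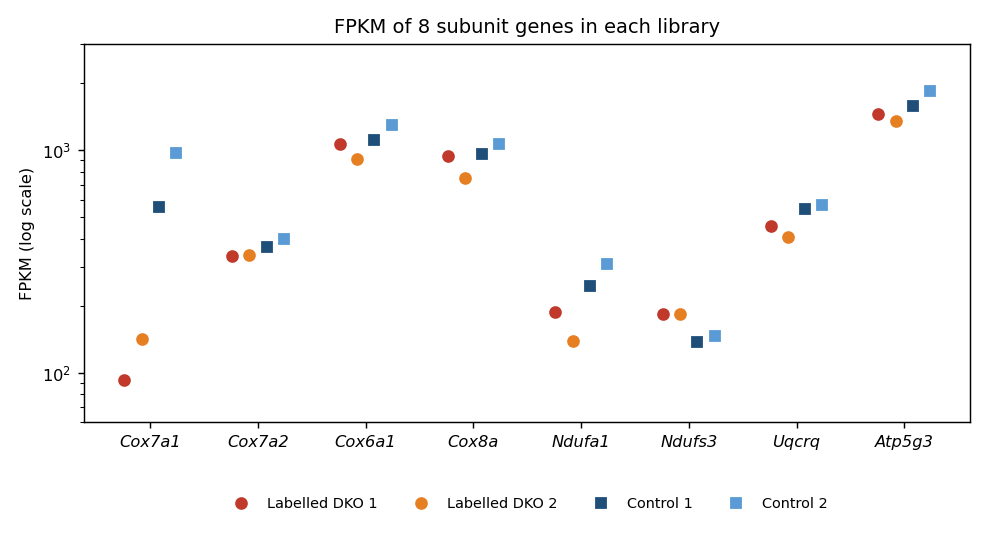
FPKM (y axis, log scale) of 8 subunit genes in each library; circles are the 2 libraries labelled double knockout (DKO) and squares the 2 controls. Cox7a1 spans 93.2 to 970 FPKM over the libraries, while Cox7a2 spans 334 to 400 FPKM.

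Promoter windows of Cox7a1, its partner Cox7a2 and Cox6a1 are printed to set the subunit that was called beside 2 complex IV subunits that were not. The windows are RefSeq sequences of GRCm38.p6, running from 250 bases before the annotated start to 50 bases after it. The strand is that of the gene, and capitals mark matches to the motifs named below. They are Cox7a1 (chr7:30183921-30184220, plus strand), Cox7a2 (chr9:79759804-79760103, minus strand) and Cox6a1 (chr5:115348909-115349208, minus strand).
Cox7a1: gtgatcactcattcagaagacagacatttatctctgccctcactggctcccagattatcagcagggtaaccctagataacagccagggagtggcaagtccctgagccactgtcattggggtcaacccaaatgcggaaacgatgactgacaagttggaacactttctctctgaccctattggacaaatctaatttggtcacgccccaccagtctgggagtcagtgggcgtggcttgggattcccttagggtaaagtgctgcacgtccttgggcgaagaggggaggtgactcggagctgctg
Cox7a2: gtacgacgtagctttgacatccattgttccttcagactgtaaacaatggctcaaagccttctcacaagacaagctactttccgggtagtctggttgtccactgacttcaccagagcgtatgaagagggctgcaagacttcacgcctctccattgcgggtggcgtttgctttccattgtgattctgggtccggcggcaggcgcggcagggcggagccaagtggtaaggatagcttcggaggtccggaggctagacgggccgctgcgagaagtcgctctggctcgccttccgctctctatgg
Cox6a1: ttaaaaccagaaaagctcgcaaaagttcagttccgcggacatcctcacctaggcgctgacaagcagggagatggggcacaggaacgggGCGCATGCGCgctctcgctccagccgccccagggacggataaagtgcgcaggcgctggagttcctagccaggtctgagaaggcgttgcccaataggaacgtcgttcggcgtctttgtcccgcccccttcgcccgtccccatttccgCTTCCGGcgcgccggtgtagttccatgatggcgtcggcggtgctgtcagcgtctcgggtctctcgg

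Of the 77 subunits, 67 were matched to RefSeq promoter entries, which gave 73 windows beside 32851 windows of all genes. The latter were not filtered by expression, so they are not limited to the 10886 genes tested. Both strands were searched for 5 motifs, and no matches to different motifs overlapped in the subunit windows. The HNF4 letters CAAAGTCC were in 1.37% of subunit windows and 1.42% of all windows. The single subunit window was that of Ndufa5, an accessory subunit with 160 and 190 FPKM in the libraries labelled double knockout and 153 and 181 FPKM in controls. The CDX letters CAATAAA were in 8.22% of subunit windows and 4.60% of all windows. Motifs of 3 factors known to act at many mitochondrial genes were searched as well. The ETS letters CCGGAAG, read by GABPA, were in 21.9% of subunit windows and 8.86% of all windows. The NRF1 letters GCGCATGCG were in 11.0% and 1.75%, and the YY1 letters AAGATGGC in 16.4% and 2.75%. These shares of subunit windows rest on 6 windows for CDX, 16 for ETS, 8 for NRF1 and 12 for YY1. In Cox6a1 the capitals are an NRF1 match, counted on both strands, and an ETS match. None of the 5 motifs was found in the printed windows of Cox7a1 and Cox7a2, which says only that these letters are not in these windows. A match is a description of the letters and not a measured binding site.

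The genes of complex I had a median mean level of 178 FPKM. Of its 36 genes, 19 had log2 fold changes above zero and 17 below, with a median of 0.02 and a range of -0.76 to 0.36. None was called in either direction. Ndufa1, an X-linked accessory subunit needed for complex I assembly, had the lowest value. It had 188 and 140 FPKM in the libraries labelled double knockout, against 244 and 308 FPKM in controls. The groups did not overlap, and the log2 fold change of -0.76 ± 0.23 (SE) had a 95% interval of -1.36 to -0.15 and an unadjusted p of 0.0234. It did not pass the adjustment over all genes (limma adjusted p = 0.114), nor under any of the 12 alternatives, where the adjusted p was 0.0787 to 0.348.

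Ndufs3, a core subunit of the peripheral arm, lay at the other end of complex I. It had 183 and 184 FPKM in the libraries labelled double knockout, against 138 and 147 FPKM in controls. The groups did not overlap, and its log2 fold change was 0.36 (95% interval -0.04 to 0.77, limma adjusted p = 0.214). The most abundant genes of the group were Ndufa4, which is now assigned to complex IV, and Ndufb9, an accessory subunit of the membrane arm. Ndufa4 had 580 and 610 FPKM in the libraries labelled double knockout, against 847 and 601 FPKM in controls (limma adjusted p = 0.530). Ndufb9 had 473 and 422 FPKM in the libraries labelled double knockout, against 453 and 556 FPKM in controls (limma adjusted p = 0.641). For both, the groups overlapped.

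None of the 4 subunits of complex II was called, and their log2 fold changes lay between -0.22 and 0.09. Sdhd, a membrane anchor, had 452 and 381 FPKM in the libraries labelled double knockout, against 363 and 465 FPKM in controls. Sdhb, the iron-sulfur subunit, had 370 and 369 FPKM in the libraries labelled double knockout, against 377 and 489 FPKM in controls. Sdhb was the sole member of this complex whose groups did not overlap, and its log2 fold change was -0.22 (limma adjusted p = 0.546). Sdhc, the other anchor, had 307 and 287 FPKM in the libraries labelled double knockout, against 254 and 304 FPKM in controls. Sdha, the catalytic flavoprotein, had 272 and 224 FPKM in the libraries labelled double knockout, against 249 and 302 FPKM in controls.

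Of the 8 complex III genes none was called, and 6 had log2 fold changes below zero, with a median of -0.06. Uqcrq, a small subunit, had 458 and 409 FPKM in the libraries labelled double knockout, against 543 and 570 FPKM in controls. The groups did not overlap, and the log2 fold change of -0.36 was the lowest of the complex (95% interval -0.84 to 0.12, limma adjusted p = 0.275). Uqcr10, another small subunit, had 531 and 523 FPKM in the libraries labelled double knockout, against 399 and 515 FPKM in controls (log2 fold change 0.22, limma adjusted p = 0.553). The most abundant were Uqcrh, the hinge protein, and Uqcrb, which takes part in ubiquinone binding. Uqcrh had 942 and 762 FPKM in the libraries labelled double knockout, against 893 and 1112 FPKM in controls. Uqcrb had 690 and 702 FPKM in the libraries labelled double knockout, against 614 and 853 FPKM in controls. For both, the 2 controls lay on either side of at least 1 library labelled double knockout.

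Complex IV had the lowest median of the 5 groups, -0.19 over 12 genes, with 9 genes below zero. Without Cox7a1 the other 11 genes had a median of -0.18 and a range of -0.28 to 0.22, and none was called. Cox6a1, the ubiquitous isoform of a small regulatory subunit, had 1066 and 910 FPKM in the libraries labelled double knockout, against 1109 and 1292 FPKM in controls (log2 fold change -0.28, limma adjusted p = 0.465). Cox8a, the ubiquitous isoform of the smallest subunit, had 943 and 754 FPKM in the libraries labelled double knockout, against 958 and 1069 FPKM in controls (log2 fold change -0.26, limma adjusted p = 0.496). In both, the groups did not overlap, but the gap between them was smaller than the distance between replicates. Cox4i1, the ubiquitous isoform of subunit 4, falls outside the symbol pattern and showed a like difference. It had 1205 and 981 FPKM in the libraries labelled double knockout, against 1209 and 1601 FPKM in controls (log2 fold change -0.36, limma adjusted p = 0.423).

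Complex V held the most abundant subunits, with a median mean level of 694 FPKM, and none of its 17 genes was called. The median log2 fold change was -0.13, with 5 genes above zero and 12 below, over a range of -0.31 to 0.28. The 5 genes of the F1 head, the catalytic part, had a median of -0.27, with 4 below zero. Atp5b, the catalytic beta subunit, had 1397 and 1352 FPKM in the libraries labelled double knockout, against 1518 and 1824 FPKM in controls (log2 fold change -0.28, limma adjusted p = 0.482). Atp5d, the delta subunit of the central stalk, had 399 and 329 FPKM in the libraries labelled double knockout, against 449 and 447 FPKM in controls (log2 fold change -0.31, limma adjusted p = 0.361). The 7 genes of the peripheral stalk and membrane part had a median of -0.10. The pattern also took in Atp5s and Atp5sl, which are named for ATP synthase but are not among its structural subunits, at 4.39 to 5.48 and 16.3 to 22.3 FPKM over the 4 libraries.

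The membrane ring of ATP synthase is made of 1 protein that 3 genes encode, with different targeting peptides. Atp5g3 had 1451 and 1351 FPKM in the libraries labelled double knockout, against 1581 and 1852 FPKM in controls (log2 fold change -0.29, limma adjusted p = 0.457). Atp5g2 had 372 and 320 FPKM in the libraries labelled double knockout, against 284 and 286 FPKM in controls (log2 fold change 0.28, limma adjusted p = 0.376). Atp5g1 had 394 and 366 FPKM in the libraries labelled double knockout, against 346 and 361 FPKM in controls (log2 fold change 0.10, limma adjusted p = 0.741). The groups did not overlap for any of the 3, Atp5g3 lying lower and the other 2 higher, and none was called. Groups did not overlap for 60.7% of all genes tested either, so this says little about the 3 genes. Atp5g3 made up 65.5% and 66.3% of the FPKM of the 3 genes in the libraries labelled double knockout, against 71.5% and 74.1% in controls. The 3-gene sum overlapped between the groups, at 2217 and 2038 FPKM in the libraries labelled double knockout and 2211 and 2498 FPKM in controls.

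**Figure D3:**
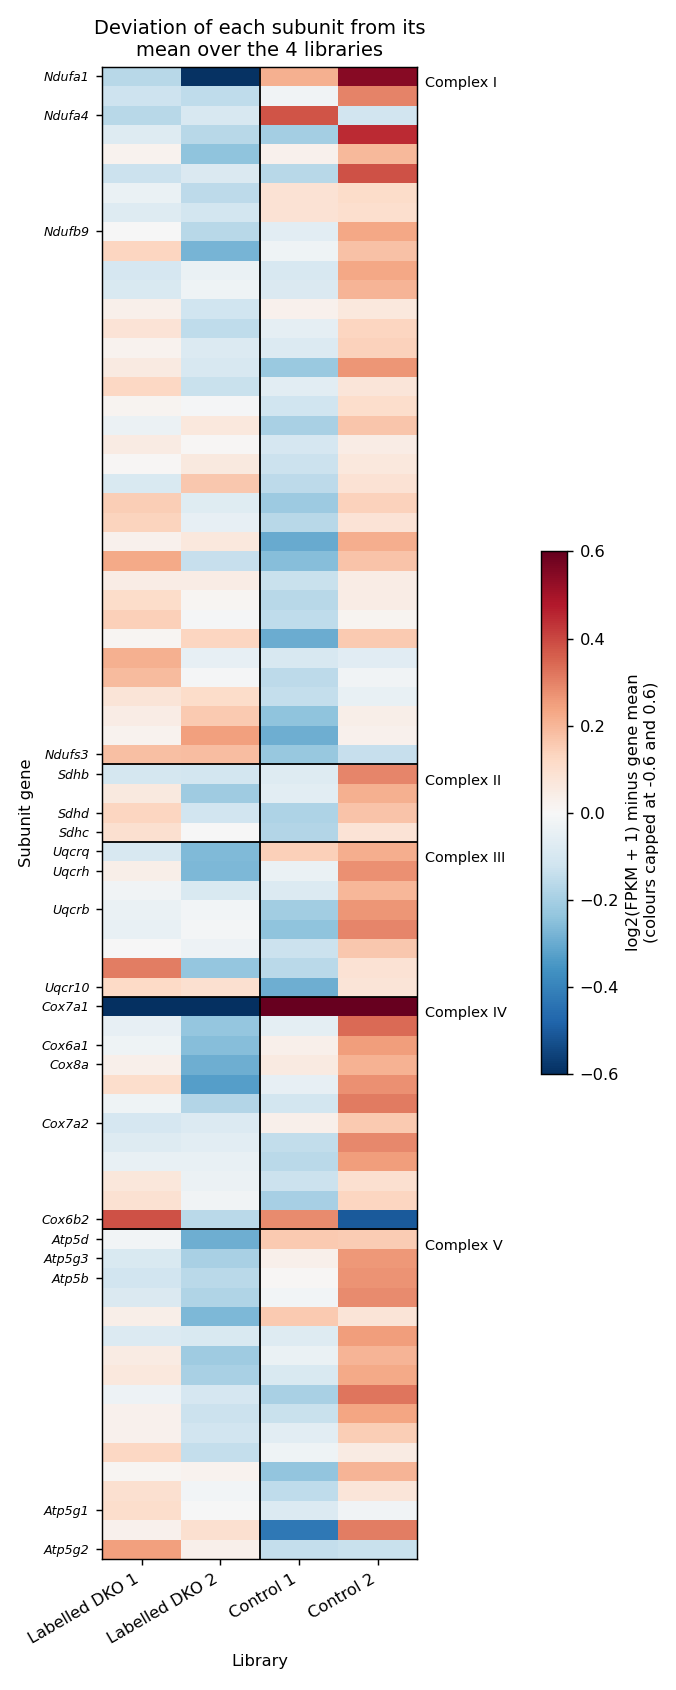
Deviation of log2(FPKM + 1) from the gene's mean over the 4 libraries (colour, capped at -0.6 and 0.6) for the 77 subunit genes (rows, grouped by complex, with the names of some genes given in the text) in the libraries labelled double knockout (DKO) and control. Control replicate 2 lies above control replicate 1 in 73 of 77 rows, and Cox7a1 is the row in which both groups reach the end of the colour scale.

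Summed over the 77 genes, the subunits had 31064 and 28714 FPKM in the libraries labelled double knockout, against 29560 and 36263 FPKM in controls. The means were 29889 ± 1662 FPKM in the libraries labelled double knockout and 32911 ± 4740 FPKM in controls (SD, n = 2 each), and the groups overlapped. The subunits made up 4.51% and 4.46% of the summed FPKM in the libraries labelled double knockout, against 4.58% and 5.44% in controls. Complex IV alone had sums that did not overlap, at 6670 and 6075 FPKM in the libraries labelled double knockout and 6799 and 8631 FPKM in controls. Without Cox7a1 its sums overlapped, at 6577 and 5933 FPKM in the libraries labelled double knockout and 6244 and 7661 FPKM in controls. For each of the other 4 complexes, the sum of control replicate 1 lay within or below the range of the libraries labelled double knockout, and that of control replicate 2 lay above it.

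**Figure D4:**
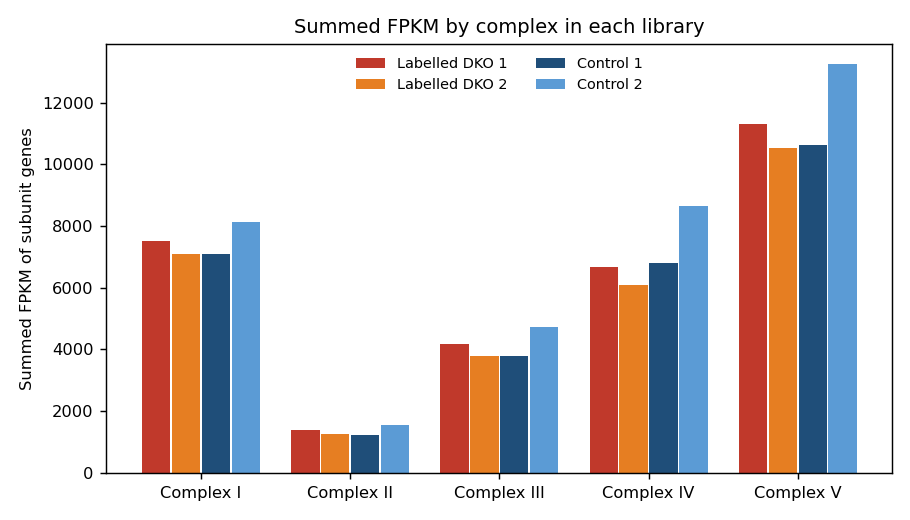
Summed FPKM of the subunit genes of each complex (y axis, from 0) in the 2 libraries labelled double knockout (DKO) and the 2 controls, 1 bar a library. Control replicate 2 has the highest sum in each complex, from 1560 FPKM in complex II to 13234 FPKM in complex V.

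The spread between the control replicates was larger than the median difference between the groups. Control replicate 2 lay above control replicate 1 for 73 of 77 subunits, with a median log2 difference of 0.26, while over all genes this difference had a median of -0.01. Of the lists described below, it had a median of 0.30 for the citric acid cycle (16 of 18 genes above). It was 0.66 for glycolysis (17 of 18) and 0.01 for assembly factors (21 of 39). The shift was thus not particular to the subunits. Double knockout replicate 2 lay above replicate 1 for 21 of 77 subunits, with a median log2 difference of -0.10. The median log2 fold change of the subunits was 0.08 without control replicate 2 and -0.19 without control replicate 1, so its sign depended on which control was left out.

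Cell type markers differed between the same controls. The 7 markers of crypt base and cycling cells summed to 403 and 434 FPKM in the libraries labelled double knockout, against 417 and 179 FPKM in controls, and 7 of 7 were lower in control replicate 2 than in control replicate 1. Olfm4, a crypt base gene, had 336 and 346 FPKM in the libraries labelled double knockout, against 337 and 135 FPKM in controls. The 7 leukocyte markers summed to 9.96 and 17.0 FPKM in the libraries labelled double knockout, against 19.5 and 53.9 FPKM in controls. Among them Lyz2, a lysozyme of myeloid cells, had 1.86 and 2.66 FPKM in the libraries labelled double knockout, against 8.60 and 34.8 FPKM in controls (limma adjusted p = 0.0740). Itgam, a myeloid integrin, was the leukocyte marker called lower, at 0.706 and 0.549 FPKM in the libraries labelled double knockout, against 2.23 and 2.77 FPKM in controls (limma adjusted p = 0.0410). It passed the filter only through the controls (mean 2.50 FPKM there, 0.628 FPKM in the libraries labelled double knockout). The Itgam call was thus favoured by the filter and is not support for a difference. Groups overlapped for the pan-leukocyte gene Ptprc and the T cell genes Cd3e and Cd8a, with log2 fold changes of -0.58, 0.25 and -0.03. The 6 epithelial markers summed to 14013 and 8968 FPKM in the libraries labelled double knockout, against 11030 and 13282 FPKM in controls. Of these, Epcam and Vil1 were called lower and the other 4 were not called. Epcam, an adhesion protein of epithelia, was at 526 and 531 FPKM in the libraries labelled double knockout, against 1135 and 1281 FPKM in controls (limma adjusted p = 0.0300). Vil1, the microvillus protein villin, had 508 and 487 FPKM in the libraries labelled double knockout, against 970 and 1024 FPKM in controls (limma adjusted p = 0.0411). Alpi, the intestinal alkaline phosphatase, lay on the other side, at 1106 and 764 FPKM in the libraries labelled double knockout, against 447 and 645 FPKM in controls (log2 fold change 0.78, limma adjusted p = 0.178). Cdh1, E-cadherin, also lay above both controls (0.31, limma adjusted p = 0.411), and Krt20 and Fabp1 overlapped between the groups, with log2 fold changes of -0.12 and -0.01. Markers of stroma, smooth muscle and endothelium stayed at or below 1.32 FPKM each. The part of these markers in the subunit values was not tested.

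Other genes of the pathway were read from lists of known function. Of the subunits that the symbol pattern missed, 5 were tested and none was called or had an unadjusted p under 0.05, with a median log2 fold change of -0.30. All 5 lay below zero. For 4 the groups did not overlap (80.0%, beside 60.7% of all genes). The lowest was Usmg5 (log2 fold change -0.43, limma adjusted p = 0.283). Of the 5, Cyc1, cytochrome c1 of complex III, had 364 and 365 FPKM in the libraries labelled double knockout and 378 and 456 FPKM in controls (limma adjusted p = 0.572). Ndufab1, the acyl carrier protein of complex I, had 200 and 207 FPKM in the libraries labelled double knockout and 199 and 214 FPKM in controls (limma adjusted p = 0.953). Of 39 assembly factors none was called, and 7 had an unadjusted p under 0.05, a smaller share than the 28.3% of all genes. Their median log2 fold change was 0.22, with 28 above zero, where 5697 of 10886 genes tested were above zero. The most abundant was Cox17, a copper chaperone of complex IV, with 260 and 266 FPKM in the libraries labelled double knockout and 204 and 237 FPKM in controls (limma adjusted p = 0.400). Of 14 electron carriers, their synthesis genes and the ATP synthase inhibitor, none was called and 3 had an unadjusted p under 0.05, again a smaller share than the 28.3% of all genes. Atpif1, that inhibitor, had 588 and 573 FPKM in the libraries labelled double knockout, against 703 and 756 FPKM in controls (limma adjusted p = 0.318).

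None of 18 genes of the citric acid cycle was called by limma. An unadjusted p under 0.05 was seen in 3, also a smaller share than the 28.3% of all genes, and the median log2 fold change was 0.01. The most abundant, the malate dehydrogenase gene Mdh2, had 824 and 838 FPKM in the libraries labelled double knockout, against 1416 and 1657 FPKM in controls. The groups did not overlap and the log2 fold change was -0.88 ± 0.21 (SE), with a limma adjusted p of 0.0698. It passed the threshold under quantile normalization (0.0362) and without the intensity trend (0.0447). Of 18 genes listed as markers of mitochondrial mass, 1 was called (5.56%), beside 9.65% of all genes. Mitochondrial mass itself was not measured. The median log2 fold change of these 18 genes was 0.19, with 13 above zero and 5 below. Tomm40, the pore of the outer membrane import channel, was 2.01-fold higher. It had 42.3 and 49.9 FPKM in the libraries labelled double knockout, against 22.7 and 22.0 FPKM in controls (limma adjusted p = 0.0265). That call was lost whichever library was left out (0.0581 to 0.119).

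Of 19 tested regulators of mitochondrial genes, 1 was called lower and 1 higher, which is 10.5% and near the 9.65% of all genes. An unadjusted p under 0.05 was seen in 7 of the 19, a larger share than the 28.3% of all genes. Ppargc1a, the coactivator PGC-1 alpha that is known to raise expression of respiratory chain genes, had 2.16 and 2.66 FPKM in the libraries labelled double knockout, against 11.8 and 13.1 FPKM in controls. It was 3.95-fold lower (log2 fold change -1.98 ± 0.17 SE, limma adjusted p = 0.00745), and the groups did not overlap. Ppargc1b, of the same gene family, lay the other way and was not called (log2 fold change 1.06, limma adjusted p = 0.123). It had 7.81 and 7.90 FPKM in the libraries labelled double knockout, against 2.05 and 4.93 FPKM in controls. Pparg, a nuclear receptor, had 27.2 and 38.3 FPKM in the libraries labelled double knockout, against 6.75 and 9.80 FPKM in controls, and was 3.64-fold higher (limma adjusted p = 0.0182). The Ppargc1a call was lost without control replicate 1 (0.0503) or 2 (0.0554), and the Pparg call without either control (0.0819 and 0.0656) or double knockout replicate 2 (0.0726). The factors whose motifs were searched in the promoters were looked at after their values were known, and none was called apart from Hnf4a and Cdx2. Gabpa had 10.1 and 11.9 FPKM in the libraries labelled double knockout and 10.3 and 14.1 FPKM in controls (limma adjusted p = 0.735). Nrf1 had 5.58 and 6.79 FPKM in the libraries labelled double knockout and 7.69 and 6.80 FPKM in controls (limma adjusted p = 0.505), and Yy1 had 32.6 and 27.5 FPKM in the libraries labelled double knockout and 25.9 and 33.1 FPKM in controls (limma adjusted p = 0.938).

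Of 18 tested genes of glycolysis, 2 were called (11.1%), a share near the 9.65% of all genes. Both were higher and both are hexokinases, which catalyse the first step. Hk1 had 22.7 and 19.9 FPKM in the libraries labelled double knockout, against 2.20 and 4.69 FPKM in controls, a 5.22-fold difference (limma adjusted p = 0.0158). Hk2 had 9.37 and 12.7 FPKM in the libraries labelled double knockout, against 3.24 and 3.05 FPKM in controls, a 2.88-fold difference (limma adjusted p = 0.0165). The median log2 fold change of the 18 genes was -0.11, with 11 below zero. The Hk1 call was lost without double knockout replicate 1 (0.0616) or 2 (0.0619), and the Hk2 call without control replicate 1 (0.0764), control replicate 2 (0.0914) or double knockout replicate 2 (0.0730).

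**Figure D5:**
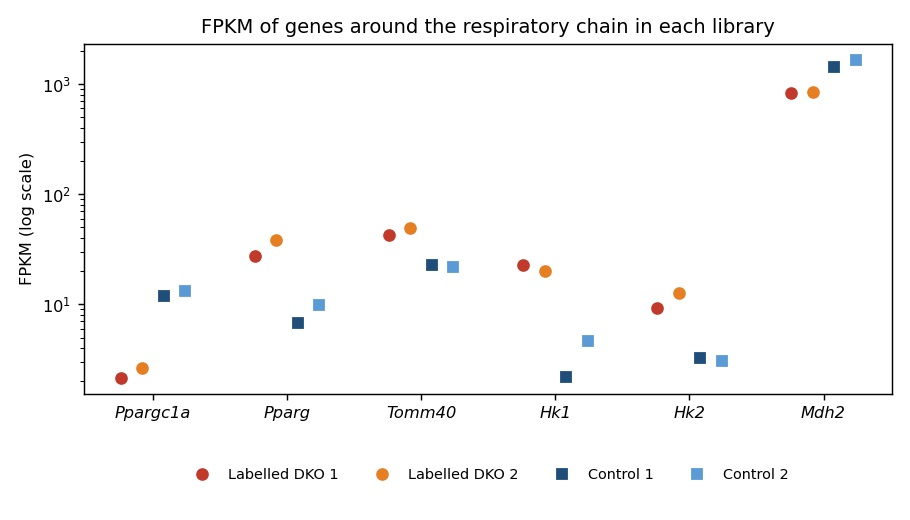
FPKM (y axis, log scale) in each library of 5 called genes around the respiratory chain and of Mdh2, which was not called; circles are the 2 libraries labelled double knockout (DKO) and squares the 2 controls. Ppargc1a lies lower, and Pparg, Tomm40, Hk1 and Hk2 higher, in both libraries labelled double knockout than in both controls.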

How the data were processed

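Jejunal epithelium was sequenced in 2 libraries labelled double knockout and 2 libraries from Cre-negative controls. Groups came from the sample titles. Libraries were TruSeq with single-end reads, per the labels' protocols, which do not state whether strand was kept. Per the submitters' processing notes, TopHat2 2.0.9, Cufflinks 2.1.1, Cuffnorm, Cuffdiff and mm9 were used, with no roles given. The authors deposited 1 expression table, of 23735 rows and 4 library columns. Its header names no unit, and its values were taken as FPKM normalized between libraries because they resemble the FPKM that the authors deposited for each library alone, per the file headers. The authors' deposited table of their comparison holds group FPKM, p-values and q-values. No counts were used, so depth is unknown and no counting error is given. Library sums were 651603 to 704038 FPKM, 10638 to 10752 symbols had at least 1 FPKM, and the 10 highest rows held 15.5% to 19.4% of the sum.

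Rows sharing a symbol were summed (160 symbols) and 1026 short RNA symbols dropped. Genes that averaged 1 FPKM or more were tested with limma 3.58.1 (R 4.3.3) on log2(FPKM + 1), two-sided, with a genotype term and empirical Bayes variances that follow intensity. Benjamini-Hochberg adjustment ran over all 10886 genes, and a gene counted as called where the adjusted p was under 0.05. All fold changes are on the log2(FPKM + 1) scale, which understates the change of low genes. With 2 libraries a group, the smallest p of an exact permutation test is 0.333, so none is reported. The procedure was tested on simulated data. Named were, in each complex, called members, the 2 most abundant, and the highest and lowest log2 fold change; fixed isoform pairs; and called or else the most abundant members of the other lists. A result on a subgroup of complex I is not reported here, and subunits that the rule does not name are given by counts and ranges. The members and lists were chosen with earlier results of these data known. How the authors assigned reads shared with near-identical copies is not given in the sources used here. Subunit genes have many processed pseudogenes, so their values are uncertain to that extent. Alternatives changed the pseudocount, filter, scaling, FPKM source, variance model and replicate block, and left out each library in turn.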

Additional observations from a re-analysis of the deposited data

How the results depend on the processing

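Leaving out libraries mattered most. The number of genes called, 1050 of 10886, was 171 or 176 when control replicate 1 or 2 was left out, and 693 or 506 when double knockout replicate 1 or 2 was left out. Subunits called, and called lower, ranged from 0 to 1. The median log2 fold change ranged from -0.19 to 0.0777 over all subunits, from -0.10 to 0.14 for complex I, from -0.23 to 0.09 for complex II, from -0.27 to 0.15 for complex III, from -0.35 to -0.0726 for complex IV and from -0.29 to 0.0180 for complex V. Signs turned for Sdhd (-0.16 to 0.19), Sdhc (-0.0365 to 0.23), Uqcrb (-0.29 to 0.18), Cox6b2 (-0.18 to 0.62) and Ndufab1 (-0.0755 to 0.0354), none of them called.

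With the FPKM of each library alone, the median of all genes was 0.17 in place of 0.02, and 515 genes were called higher and 478 lower, against 413 and 637. The subunit medians moved with it, to 0.0832 over all subunits, 0.18 for complex I, 0.11 for complex II, 0.13 for complex III and 0.0246 for complex V. Uqcrb was then at 0.12 and Ndufab1 at 0.17, and Ndufab1 was at 0.0851 under quantile normalization; the cause was not tested. With no filter on low values 708 of 16715 genes were called.

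The replicate numbers were shared between groups, but no label says that they mark a common litter or batch, and with 2 numbers they were not taken as pairs. Deviations of same-numbered libraries correlated at r = -0.00493 over 10886 genes and at r = 0.396 over the 77 subunits. Such an r leaves out the shift common to the genes, and for the subunits this ran opposite ways in the 2 groups. The median log2 difference of replicate 2 over replicate 1 was 0.26 in controls and -0.10 in the libraries labelled double knockout. With the replicate block 787 genes were called, Cox7a1 among them (adjusted p = 0.0128), and the Tomm40 call was lost (0.0567). Cox7a1 was called under all 8 alternatives that kept every library, with a log2 fold change of -2.67 to -2.55. Of 407 values of named genes recomputed, 371 kept direction and side of the threshold, 23 were no longer past it, 2 newly passed it and 11 turned sign. With 2 libraries a group and no counts, the precision at low FPKM cannot be given.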
